A study of Drosophila melanogaster with 4 samples.

Results

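The steroid hormone ecdysone times molting and metamorphosis in Drosophila. It binds a receptor made of EcR and its partner Usp, both nuclear receptors, and the bound receptor turns on a first group of genes, the early genes, many of which encode transcription factors. Their products act on a later group that includes further nuclear receptors, and pulses of the hormone in the last larval instar carry the animal from feeding to wandering and pupariation. The genes described here are EcR and usp, the early genes br, Eip74EF, Eip75B and Eip78C, and the later nuclear receptor genes Hr3, Hr4, Hr39 and ftz-f1, 10 in all. They were looked up by gene symbol in the annotation of the array, and each probe was kept apart. This gave 12 probes by symbol. A further 2 probes, listed as CG11509 and CG3600, were added because the current gene table gives these former locus names to br and Hr4. The 14 probes stand for 8 of the 10 genes, among 13163 probes for 11763 genes. Eip74EF and Eip75B were not analysed here, because no probe was listed under their names. The Eip78C probe and 1 of 6 br probes had no value on any array, which left 12 probes of 7 genes to test.

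RNA of trx mutant larvae (w1118;+;trxE3/trxB11, isogenized) was hybridized against RNA of a pool of wild-type larvae (w1118;+;+, an isogenic strain) on spotted oligonucleotide arrays in 2 colors. trx encodes a histone methyltransferase of the trithorax group, and each of its copies in these larvae was a mutant allele. Whole larvae of the third instar, raised at 21 °C and staged by bromophenol blue in the food (0.025%), were used for both. The methods describe them as wandering, with a blue gut, and as early in that instar. The methods list chromosomes X, Y and 2 as transferred from the isogenic line, but not chromosome 3, which carries trx, Eip78C and ftz-f1. Of the genes given below with an adjusted p under 0.05, ImpE2, ImpE3, sro, Sgs5, Eig71Ee, Lsp2 and Lcp65Ag2 also lie on it. The others, br, vri, Cyp18a1, Hr38 and Cth, do not. The part of a background difference on chromosome 3 in these values was not tested. There were 4 arrays, which are 2 biological replicates (separate RNA extractions) with 2 arrays each, the mutant being in Cy3 on arrays 1 and 3 and in Cy5 on arrays 2 and 4. The wild-type pool was used on every array, so its own spread is in no p, and a p covers the spread between 2 extractions.

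Each value is a log2 ratio of mutant over wild type, and a positive one means more transcript in the mutant. In whole larvae, fewer cells of a type and less RNA per cell cannot be told apart. Between 11199 and 12775 spots had a value on an array. Across probes, Pearson's r was 0.904 and 0.881 between dye-swapped arrays and 0.710 to 0.824 between arrays of different replicates. A probe was called at an adjusted p under 0.05 (limma, Benjamini-Hochberg over 10710 probes, n = 2 replicates) and a change of at least 2-fold. The trx probe itself had 0.22 on array 2, 0.13 on array 3 and 0.28 on array 4, and their mean was 0.21 (moderated standard error, SE, 0.0484; adjusted p = 0.0935). It had no value on array 1. No array showed less transcript of the mutated gene, and where this probe lies relative to the lesions is not known here.

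One probe of br was higher in the trx mutant larvae, and the other 11 probes were within a log2 fold change of 0.5 either side of 0. Called higher was 1 of 12 probes, whereas 1.53% of all 10710 probes were. Called lower were 0 of 12, against 2.39% of all probes, and at an unadjusted p under 0.05 the br probe was again the single one of the 12 (limma; 37.2% of all probes were under 0.05). A count of 1 is the smallest that could exceed the share among all probes, so it is not a result about the 10 genes together. Of the 12 log2 fold changes, 5 were above 0 and 7 below. Their median was -0.006, against -0.02 over all probes tested, and their median absolute value was 0.06, against 0.163.

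**Figure D1:**
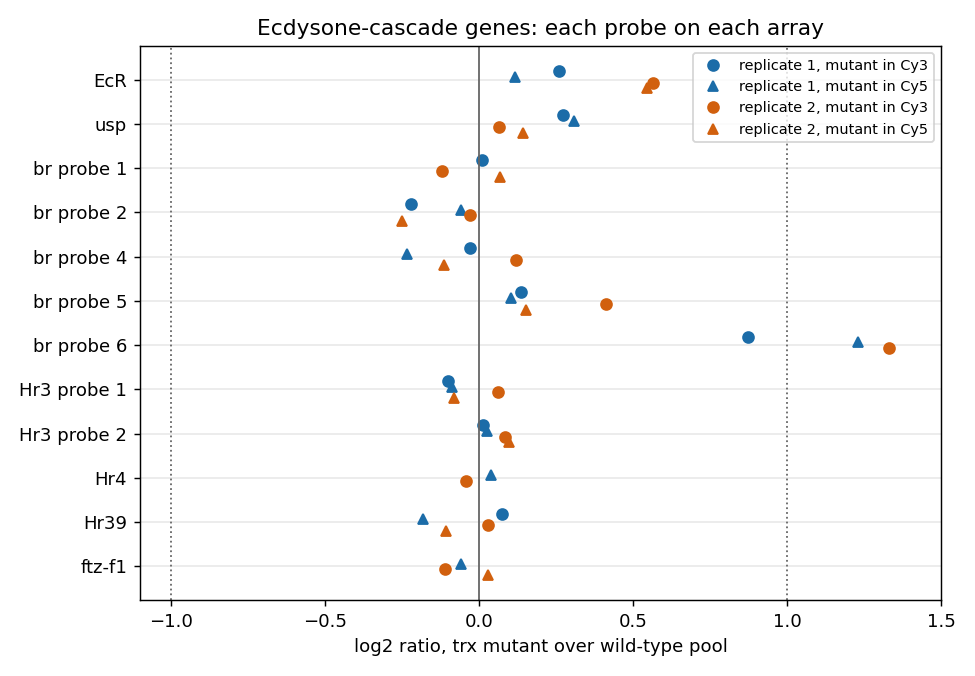
Log2 ratio of trx mutant over wild-type pool (x axis) on each array for the 12 probes with values in both replicates (rows), with the replicate given by color, the dye of the mutant by symbol, and dotted lines at a 2-fold change. The sixth br probe lies between 0.87 and 1.33 on its 3 arrays, and EcR and usp lie above 0 on all 4.

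EcR encodes the hormone-binding part of the receptor, and 1 probe measured it. Its log2 ratios were 0.26 and 0.12 in replicate 1 and 0.57 and 0.54 in replicate 2. All 4 were above 0, and the replicates did not overlap, the lower of replicate 2 being above both of replicate 1. The mean was 0.37 (SE 0.121, 95% interval -0.03 to 0.78, adjusted p = 0.150), which is 1.29-fold and was not called. The interval leaves room for 0.978-fold to 1.71-fold. The replicate means were 0.37 apart on the log2 scale, and 11.2% of all probes had a larger gap.

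The partner gene usp also had 1 probe. It had 0.27 and 0.31 in replicate 1 and 0.06 and 0.14 in replicate 2, again above 0 on all 4 arrays. Here replicate 1 was the higher of the 2 and the replicates did not overlap, which is the opposite of EcR. The mean was 0.20 (SE 0.0744, 95% interval -0.05 to 0.45, adjusted p = 0.181), or 1.15-fold, and was not called. Since both genes were read on the same arrays, the difference of EcR minus usp can be taken within each, and it was -0.02 and -0.19 in replicate 1 and 0.50 and 0.40 in replicate 2. The log2 ratios of both genes were thus nearly equal on array 1, and that of usp was the higher on array 2. In replicate 2 that of EcR was the higher on both arrays. A single direction on every array was common: 28.5% of all probes were above 0, and 34% below 0, on each array with a value. These shares include probes with fewer than 4 values, for which a single direction is easier to reach.

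br, on chromosome X, encodes the Broad proteins, a set of zinc finger transcription factors made from alternatively spliced transcripts, which are needed for entry into metamorphosis. It is an early gene of the hormone response and had 6 probes, numbered here in the order of the array. The sixth had log2 ratios of 0.87 and 1.23 in replicate 1 and 1.33 on the array of replicate 2 with the mutant in Cy3, and no value on the other array. All 3 values were well above 0. The mean of the replicates was 1.19 (SE 0.0967, 95% interval 0.87 to 1.52, adjusted p = 0.0326), which is 2.28-fold with an interval of 1.83-fold to 2.86-fold. A larger absolute change was found in 3.97% of all probes. The value of replicate 2 rests on 1 array, without which the probe cannot be tested.

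The other br probes did not show this rise. The fifth was above 0 throughout, at 0.14 and 0.11 in replicate 1 and 0.41 and 0.15 in replicate 2, with a mean of 0.20 (SE 0.0683, 95% interval -0.03 to 0.43, adjusted p = 0.158). The second was below 0 throughout, at -0.22 and -0.06 in replicate 1 and -0.03 and -0.25 in replicate 2, with a mean of -0.14 (SE 0.0482, 95% interval -0.30 to 0.02, adjusted p = 0.163). The first and the fourth, the latter listed as CG11509, lay on both sides of 0, with means of -0.009 (3 arrays) and -0.06 (4 arrays) and adjusted p values of 0.910 and 0.511. None of these 4 reached the lowest value of the sixth on any array.

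Within an array the sixth br probe was above each of the others. It exceeded the fifth, the nearest, by 0.74 on array 1, 1.13 on array 2 and 0.92 on array 3, and it exceeded the second by 1.09, 1.29 and 1.36. Over the 4 other probes with values these 11 differences ran between 0.74 and 1.46. They are given as a description, since this probe was singled out by its value. Averaged on each array over its probes with a value, br had a log2 fold change of 0.18 (adjusted p = 0.115 in a limma fit of genes). It was not called. The sixth probe had no value on array 4, so the mean of that array left it out. Which transcripts of br each probe detects is not known here, so the probes could not be assigned to isoforms.

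Hr3 encodes a nuclear receptor that is induced by the hormone at the end of larval life and in turn activates ftz-f1. Its 2 probes were near 0. The first had -0.101 and -0.087 in replicate 1 and 0.063 and -0.080 in replicate 2, and the second had 0.015 and 0.028 in replicate 1 and 0.086 and 0.097 in replicate 2. Their means of -0.05 (SE 0.0546) and 0.06 (SE 0.0525) had opposite signs, with 95% intervals of -0.23 to 0.13 and -0.12 to 0.23. Neither was called (adjusted p = 0.539 and 0.488), and the upper ends of their intervals allow 1.10-fold for the first and 1.18-fold for the second. Such limits, here and for the genes that follow, are those of the ratio of a single probe. No intensities were available, so whether these spots lay near background is not known.

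ftz-f1 encodes a nuclear receptor that gives tissues the competence to respond to the next pulse of hormone. It had -0.059 in replicate 1 (array 2, array 1 having no value) and -0.110 and 0.029 in replicate 2. The mean was -0.05 (SE 0.0485, 95% interval -0.21 to 0.11, adjusted p = 0.505), which covers 0.863-fold to 1.08-fold. Hr39 encodes a nuclear receptor related to that of ftz-f1. Its ratios were 0.075 and -0.181 in replicate 1 and 0.030 and -0.107 in replicate 2, so that it was above 0 on both arrays with the mutant in Cy3 and below 0 on both with it in Cy5. The mean over the swapped dyes was -0.05 (SE 0.0484, adjusted p = 0.536), with a 95% interval of 0.866-fold to 1.08-fold.

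Hr4 encodes a nuclear receptor that acts between the early genes and ftz-f1. The probe listed as CG3600 had 0.038 on array 2 and -0.042 on array 3 and no value on the others, with a mean of -0.002 (SE 0.0539, 95% interval -0.18 to 0.18, adjusted p = 0.979). Another probe is listed for Hr4 and CG3600 at once and was left out of the tests for that reason, although the current table gives both names to 1 gene. It had -0.43 and -0.70 in replicate 1 and -0.35 on array 3, and no value on array 4. These 3 values were all below those of the tested probe and outside its 95% interval. The 2 probes thus did not give the same picture of this locus, and that interval does not bound the change of the gene.

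**Figure D2:**
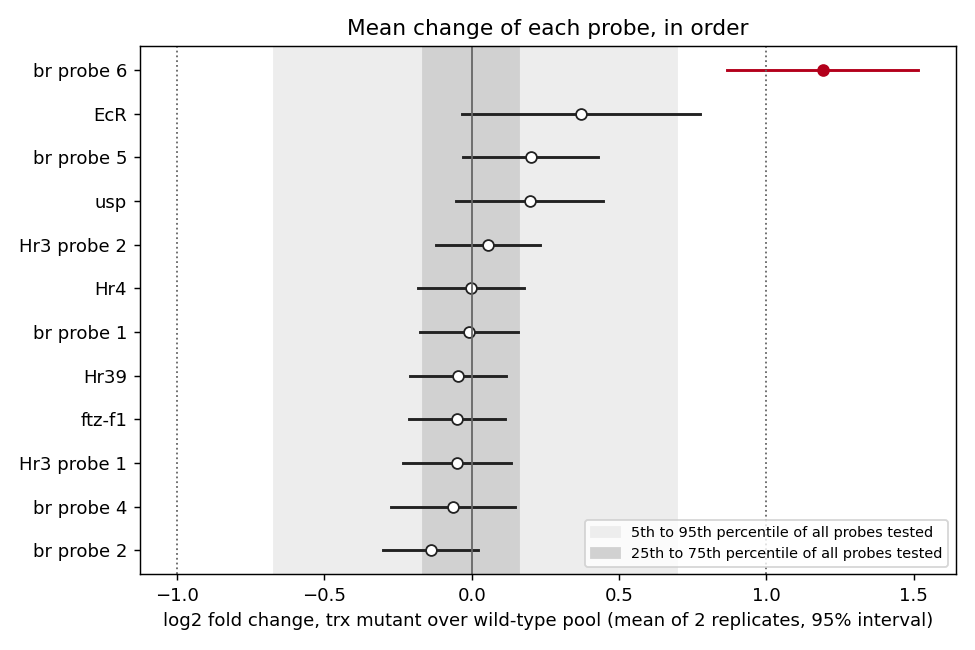
Mean log2 fold change of trx mutant over wild-type pool (x axis; points, 2 replicates) with its 95% interval from limma (bars) for the 12 probes in falling order, a filled point marking the probe called, grey bands the range of all probes tested and dotted lines a 2-fold change. The sixth br probe stands at 1.19, and the interval of every other probe holds 0.

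In order of their means the 12 probes tested ran from the sixth of br, at 1.19, through EcR at 0.37, the fifth of br and usp at 0.20 each, down to the second of br at -0.14. The lowest array of the sixth br probe was at 0.87 and the highest of EcR at 0.57, and these neighbors did not overlap. Every other pair of neighbors in the order overlapped over the arrays, so neighbors below the first place were not resolved. Some probes further apart did not overlap: the lowest array of EcR was at 0.116 and the highest of the second Hr3 probe at 0.097. The probe listed for both Hr4 and CG3600 is outside this order and outside the counts above. Its mean of the replicates was -0.455, which would be the lowest and, after the sixth br probe, the largest in absolute size. The replicate means of the 12 probes differed by a median of 0.082 on the log2 scale, against 0.101 over all probes tested. No probe had both a value on all 4 arrays and a mean change of at least 2-fold, so no gene was sought for a like pattern.

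Other genes of the hormone pathway were read in 5 lists, which together had 53 probes tested for 48 genes. Called higher were 2 probes, for ImpE2 and vri, and called lower were 0 (limma; 15 had an unadjusted p under 0.05 and 7 an adjusted p under 0.05 at any fold). Among all probes 1.53% were called higher and 2.39% lower, and 37.2% had an unadjusted p under 0.05 (limma). An adjusted p under 0.05 at any fold was reached by 5.23% that were higher and 7.05% that were lower. The counts of the single lists and markers below are to be read against the same shares. The lists differed in how far their probes lay from 0: the median absolute log2 fold change was 0.474 in the effectors and 0.216 in the genes of ecdysteroid synthesis, import and turnover, and between 0.071 and 0.096 in the other 3 lists, against 0.163 over all probes.

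Of the genes that make, import or break down ecdysteroids, 12 of 17 were tested, with 0 called in either direction and a median of 0.16. Both genes that had an adjusted p under 0.05 changed by less than 2-fold and are named after their values were seen. Cyp18a1, whose enzyme inactivates the hormone, was lower, at -1.01 and -0.68 in replicate 1 and -0.89 and -0.61 in replicate 2, with a mean of -0.80 (SE 0.0557, adjusted p = 0.0291). sro, which acts early in the synthesis of ecdysone, was higher, at 0.65 and 0.49 in replicate 1 and 0.74 and 0.72 in replicate 2, with a mean of 0.65 (SE 0.0683, adjusted p = 0.0401). Of 5 genes that mark the prothoracic gland, where ecdysone is made, 2 were tested and 0 called (limma; spok had an unadjusted p of 0.0335). spok had 0.49 and 0.43 in replicate 1 and 1.08 on both arrays of replicate 2 (mean 0.77, SE 0.195, adjusted p = 0.107). Phantom, listed as phtm, had 0.012 and 0.006 in replicate 1 and 0.46 and 0.55 in replicate 2 (mean 0.26, SE 0.158, adjusted p = 0.325). Both were higher in replicate 2, with no overlap, and the median of the 2 genes was 0.23 in replicate 1 and 0.80 in replicate 2. sad had 1.00 and 0.98 in replicate 2 and no value in replicate 1.

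Among receptor cofactors, 14 probes for 11 of 14 genes were tested and 0 were called. Their log2 fold changes lay between -0.14 and 0.34, with a median of 0.07, and 0 had an adjusted p under 0.05. These means hide differences between the replicates: 1 probe had -0.156 and -0.21 in replicate 1 and 0.799 and 0.815 in replicate 2. Another, of a different gene, had -0.046 and -0.087 in replicate 1 and 0.808 and 0.672 in replicate 2. A further one had -0.023 and -0.062 in replicate 1 and 0.56 on the single array of replicate 2 with a value. The cofactors include tai and trr, coactivators of the receptor, the latter a methyltransferase related to Trx, with -0.07 (SE 0.0518, adjusted p = 0.411) and -0.02 (SE 0.0489, adjusted p = 0.759). These 2 were chosen after their values were seen, for what they do. Of other nuclear receptors, 11 probes for 10 of 13 genes were tested, 0 were called and the median was -0.07. Hr38, whose product can pair with Usp, was lower by less than 2-fold, at -0.57 and -0.35 in replicate 1 and -0.64 and -0.46 in replicate 2 (mean -0.51, SE 0.0553, adjusted p = 0.0419).

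Among other transcription factors tied to ecdysone or juvenile hormone, 9 probes for 8 of 9 genes were tested, with 1 called higher and 0 lower. This was vri, a factor of the circadian clock that is also needed for growth, at 1.20 and 0.95 in replicate 1 and 1.18 and 0.91 in replicate 2 (mean 1.06, SE 0.0488, adjusted p = 0.0231). Its fold was just under 2 without array 1 (log2 1.00) and without array 3 (0.99), where it was not called. Eip93F, which acts in the pupal stage, had -0.04 (SE 0.0494, adjusted p = 0.599) and was chosen after its value was seen. Of ecdysone-induced effectors, 9 of 15 genes were tested, with 1 called higher, 0 lower and a median of 0.30. ImpE2, which the hormone induces in imaginal discs, had 3.53 on array 1 and 3.57 and 3.33 in replicate 2 (mean 3.49, SE 0.0530, adjusted p = 0.0175). ImpE3, induced in the same discs, was at 0.82 (SE 0.0946, adjusted p = 0.0445), and Cth, known as Eip55E, at -0.47 (SE 0.0541, adjusted p = 0.0436), both below 2-fold and named after their values were seen.

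**Figure D3:**
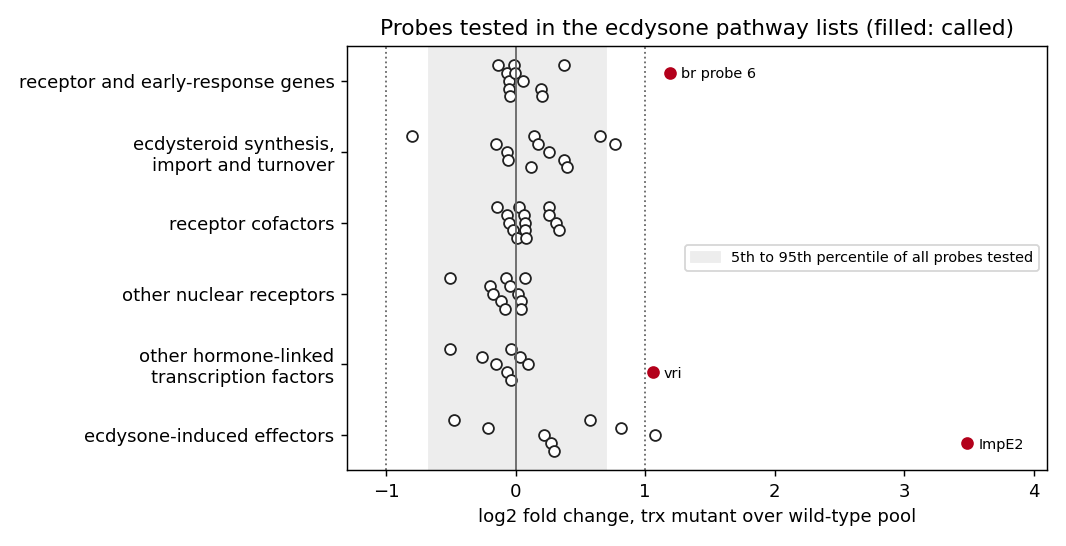
Log2 fold change of trx mutant over wild-type pool (x axis) for each probe tested in the receptor and early-response genes (top row) and in 5 lists of other pathway genes (rows below; Hr38 and svp stand in 2 lists each), filled points being called and dotted lines marking a 2-fold change. Called probes are those of br at 1.19, vri at 1.06 and ImpE2 at 3.49, and most others lie within the grey band that holds the 5th to the 95th percentile of all probes.

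Some of the genes used as tissue markers also moved on these arrays. Of 7 salivary gland genes 4 were tested and 2 were called higher, whereas 1.53% of all probes were. Sgs5 had 4.56 on array 1 and 3.01 on array 3 (mean 3.78, SE 0.469, adjusted p = 0.0474). Both arrays had the mutant in Cy3, so the dye swap does not balance this value. Eig71Ee was at 2.43 (SE 0.313, adjusted p = 0.0496). Sgs5 and Eig71Ee belong to gene families under ecdysone control. Sgs4 had 1.85 on array 1 and 0.23 and 0.18 in replicate 2 (mean 1.02, SE 0.498, adjusted p = 0.248), and Sgs1 had -0.53 and 0.15 in replicate 1 and 0.03 and -0.14 in replicate 2 (mean -0.12, SE 0.0636, adjusted p = 0.270). These 2 were not called, and they differed in sign. The median of the 4 was 2.39 in replicate 1 and 1.06 in replicate 2. Of 6 fat body genes 3 were tested and 1, Lsp2, was higher, with 3.98 (SE 0.0808, adjusted p = 0.0175), and of 6 genes of the larval epidermis 1 was tested, Lcp65Ag2, which was lower (-4.09, SE 0.179, adjusted p = 0.0231). Fbp2, a fat body gene that is also among the effectors, was at 1.69 and 1.67 in replicate 1 and 0.48 in replicate 2, and it was not called (mean 1.08, SE 0.364, adjusted p = 0.157). Fbp1, the remaining fat body gene tested and also an effector, had 0.127 on array 2 and 0.416 on array 4. It was not called either (mean 0.271, SE 0.0995, adjusted p = 0.1745). Markers of haemocytes, muscle, nervous system and male germline had 15 probes tested, between -0.64 and 0.34, of which 0 were called (limma; 3 had an unadjusted p under 0.05). The part of these tissues, or of a difference in stage, in the br value was not tested.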

How the data were processed

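The deposited values are log2 ratios of the spots. The authors read the slides in GenePix Pro and discarded spots of low quality. They then applied normexp background correction in limma, OLIN within arrays and a scaling between the 4 arrays, with versions of limma and OLIN not given in the sources used. The file names neither direction nor log base, and the direction was read from that of the study's gene lists, in which 237 of 244 probes of over-expressed genes were above 0 and 246 of 248 of under-expressed genes below 0. The base was taken as 2 from the 2-fold threshold of these lists. The 5th percentile of the absolute mean was 1.01 for under-expressed genes, which fits a base of 2, but 0.364 for over-expressed genes, which does not mark the threshold, so the base rests on the under-expressed genes. Of 16416 probes, 13970 had a value, 13163 named 1 gene, 101 several and 1 none, and 3151 were not listed. Names were updated through the NCBI gene table (Release 6 plus ISO1 MT) for 13125 probes and 38 kept the listed symbol.

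The 2 dye-swapped arrays of a replicate were averaged. Probes with a value in both replicates (10710) entered limma 3.58.1 (under R 4.3.3) with the mean as the single coefficient, and the prior had 1.76 degrees of freedom and an SD of 0.0853. Standard errors are the moderated ones and rest largely on the prior where replicates nearly coincide. Intervals are 95% and unadjusted. On simulated data for this comparison (10710 probes) the fit recovered 37 of 50 changes of log2 1.5 and 44 of 50 of log2 2, with 3 unchanged probes called. These data were complete and drawn from the fitted prior, with no planted change below log2 1.5. The simulation thus checks the working of the fit and not the calls made here. The files hold no intensities, and precision is limited by having 4 arrays. The members and lists were chosen with earlier results of these data known. All member probes are named. From each list the called genes are named, plus at most 2 chosen after their values were seen, and from marker lists the genes needed to describe them. Alternatives were another unit of the test, replicate structure, dye term, missing-spot filter, array scaling, fold threshold and left-out arrays. No coordinates are printed, because the gene table follows a newer assembly.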

Additional observations from a re-analysis of the deposited data

Results flagged for a closer look

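On 8 probes with a value on all 4 arrays, the gap of the highest or lowest array to the next was set against the whole range. In 2 of them 1 array lay far from the other 3, both times array 3 (replicate 2, mutant in Cy3). The fifth br probe had 0.411 there, with a gap of 0.848 of its range, and the first Hr3 probe had 0.063, with a gap of 0.871 (Dixon's test at the 95% level). Chance alone marks about 1 in 20 such groups, and the 4 arrays are not independent, since they come from 2 extractions.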

How the results depend on the processing

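The sixth br probe was called in 8 of the 9 alternatives that could test it, with a log2 fold change between 1.10 and 1.28 and adjusted p values between 0.00287 and 0.0415. Averaging probes into genes ended the call (0.18, adjusted p = 0.115), so that 0 members were called there. With values on all 4 arrays required, the probe dropped out and 0 member probes were called higher, and without array 3 it had no value in replicate 2 and was not tested. Leaving out 1 array at a time, 0 to 1 member probes were higher and 0 lower, 135 to 186 of all probes were higher and 219 to 274 lower, and 0 to 2 of the other pathway probes were higher and 0 lower. Without array 1 ImpE2 had no value in replicate 1 and was not tested, and vri was at 0.997, while without array 3 vri was at 0.993, both just under 2-fold, so that 0 and 1 of these probes were called. With the 4 arrays as independent samples 261 of all probes were higher, and with the replicate as a random block 266. With no minimum fold 560 of all probes were higher and 755 lower, and in the other pathway lists 4 higher and 3 lower. With values on all 4 arrays required, 1 of the latter was higher. EcR had an adjusted p of 0.0303 with independent arrays, 0.0279 with the block and 0.0498 with a dye term, over a range of 0.0279 to 0.218 in 11 alternatives. For usp it was 0.0491 with independent arrays and 0.0430 with the block, over a range of 0.0430 to 0.325 in 11. The independent and dye-term fits count the 4 arrays as separate samples, although they come from 2 extractions. The block fit used a correlation of -0.0996 between arrays of a replicate, so it did not give them less weight either. Both genes stayed under 2-fold in each alternative. Leaving out 1 replicate gave EcR 0.19 and 0.56 and the sixth br probe 1.05 and 1.33, with no test.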
